A study of Mus musculus with 8 samples.

Results

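The 4 control pancreases of a mouse study of Gata6 were described here as a baseline transcriptome of the adult organ. They were chosen by genotype, as all samples labelled Ptf1a-Cre +/KI that carry no floxed Gata6, and they are 4 of the 8 samples. The mice were 6 to 8 weeks old and of a strain given as mixed. Each carried 1 allele of Ptf1a into which the gene of Cre recombinase, an enzyme that cuts out DNA between loxP sites, had been inserted. The mice of the other group also carry that insertion, so no sample of the study has an unaltered Ptf1a locus, and the controls show pancreas with a Cre knock-in rather than pancreas of wild-type mice. Each sample was RNA of flash-frozen pancreas, with integrity numbers of 7.1 to 8.8 in the study. The libraries were made from polyadenylated RNA with 8 cycles of PCR. The labels name no animal for a sample, so the spread given below is that between labelled samples.

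Most of the pancreas consists of acinar cells, which make digestive enzymes as inactive zymogens on the rough endoplasmic reticulum, store them in granules and release them into the duct system when food arrives. Duct cells carry the juice to the gut. The islets of Langerhans hold the endocrine cells, which release insulin, glucagon and other hormones into the blood. The acinar programme is driven by PTF1, a complex of the transcription factor Ptf1a with an E protein and Rbpjl, and is supported by Bhlha15, Nr5a2 and the GATA factors. In bulk RNA, fewer cells of a type and less RNA per cell cannot be told apart.

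Levels are given as rescaled FPKM, the deposited FPKM (fragments per kilobase of gene model, relative to a library denominator) divided by 100000. The tables hold 36448 entries for 36432 gene IDs. The intervals in the tables imply 7124457, 7186240, 7809169 and 8248138 fragments behind the estimates of controls 1 to 4, and between 18345 and 19729 genes had a value above 0. An average of 1 rescaled FPKM or more was reached by 10781 genes, called expressed below, of which 8975 are protein-coding, and 8983 reached it in every control. The sum of FPKM over all entries was taken up in part by very short features, since dividing by a short length inflates the value. Entries spanning under 500 bases held 29.1%, 47.2%, 35.3% and 38.6% of the sum in controls 1 to 4. Protein-coding genes held 68.4%, 50.9%, 62.7% and 59.6%. Of the 20 entries of highest mean, 7 were short features, among them mt-Ts1, a transfer RNA of the mitochondrial genome, at 75064, 59420, 80823 and 69258 rescaled FPKM. Shares are therefore given both of the sum over all entries and of the protein-coding sum. The order of the controls was also looked at after scaling them to equal FPKM sums, to equal protein-coding sums or by median ratios over expressed genes.

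The promoters of 4 secreted acinar genes are shown first, because their transcripts stand at the top of the profile (Cela2a, Cela1) or were more than 2-fold higher in control 4 than in every other control (Reg2, Reg3b). Cela2a and Cela1 encode elastases and had the highest levels with an estimate in every control. Reg2 and Reg3b encode secreted lectin-like proteins of the regenerating family. The sequences are from RefSeq on GRCm38.p6, from 250 bases before the annotated start to 50 after it, on the gene's strand. Capitals mark the letters TATAAA where they begin and end between 45 and 16 bases before the start, and CACCTG, the E-box part of the PTF1 binding site, or its reverse complement CAGGTG.
Cela2a, chr4:141825956-141826255, minus strand: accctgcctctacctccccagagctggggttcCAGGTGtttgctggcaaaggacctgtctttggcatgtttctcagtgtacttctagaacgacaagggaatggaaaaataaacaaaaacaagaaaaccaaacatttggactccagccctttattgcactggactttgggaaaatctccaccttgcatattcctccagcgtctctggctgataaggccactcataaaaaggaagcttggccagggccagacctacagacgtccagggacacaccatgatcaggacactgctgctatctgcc
Cela1, chr15:100687871-100688170, minus strand: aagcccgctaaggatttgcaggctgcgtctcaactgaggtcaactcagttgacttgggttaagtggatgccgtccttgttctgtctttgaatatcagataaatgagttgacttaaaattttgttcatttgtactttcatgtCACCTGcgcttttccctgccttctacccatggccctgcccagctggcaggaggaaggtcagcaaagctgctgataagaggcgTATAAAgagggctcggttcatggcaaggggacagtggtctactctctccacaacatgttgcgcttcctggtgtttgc
Reg2, chr6:78404905-78405204, plus strand: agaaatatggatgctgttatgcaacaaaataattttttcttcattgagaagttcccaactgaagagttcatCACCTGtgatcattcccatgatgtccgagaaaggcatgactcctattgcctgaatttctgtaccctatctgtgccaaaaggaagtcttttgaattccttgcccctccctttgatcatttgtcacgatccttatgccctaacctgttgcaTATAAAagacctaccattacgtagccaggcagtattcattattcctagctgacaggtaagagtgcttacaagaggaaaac
Reg3b, chr6:78370635-78370934, plus strand: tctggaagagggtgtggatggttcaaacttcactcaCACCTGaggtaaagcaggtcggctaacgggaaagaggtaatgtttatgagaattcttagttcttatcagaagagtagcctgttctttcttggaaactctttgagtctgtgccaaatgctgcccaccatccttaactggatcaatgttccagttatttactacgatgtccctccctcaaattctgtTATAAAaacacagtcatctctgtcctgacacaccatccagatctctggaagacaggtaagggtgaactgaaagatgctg

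The promoter table matched 40 of 52 symbols on the lists of secreted acinar proteins, with 42 promoters. TATAAA lay in the window on the gene strand in 13 of these 42 (31.0%), against 702 of all 32851 promoters of the same length (2.14%). With 1 promoter per gene the shares were 32.5% of 40 and 2.36% of 27025. CACCTG was found on either strand in 22 of the 42 (52.4%), against 20.2% of all promoters. The 13 genes with the TATA letters were the trypsinogen genes 2210010C04Rik, Prss1, Prss3 and Try4, the elastase gene Cela1, the lipase gene Pnlip, the amylase genes Amy2a5 and Amy2b, and the granule genes Gp2, Reg1, Reg2, Reg3b and Reg3g. Cela2a has no TATAAA in this window. The letters began 27 bases before the start in Cela1, 30 in Reg2 and 29 in Reg3b. Paralogs in these families share sequence, so the promoters are not independent of each other, and a match is a description of letters, not evidence of a bound site.

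Secreted proteins of the acinar cell filled the top of the profile. All of the 20 protein-coding genes of highest mean were on the lists of secreted acinar proteins, as were 32 of the highest 50. The highest 10 genes held 57.3% ± 1.52 of the protein-coding sum (SD, n = 4), the highest 20 held 79.5% ± 1.68 and the highest 100 held 89.7% ± 0.81. In controls 1 to 4, 8, 8, 8 and 9 protein-coding genes were enough to reach 50% of the sum. Over all entries it took 14, 17, 15 and 17. The membership of the top varied little: 18 genes were among the highest 20 in all 4 controls, and 8 were among the highest 10 in all 4. At the other end, 7059 of the 8975 expressed protein-coding genes had means from 1 to 10 rescaled FPKM, and 1675 from 10 to 100.

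**Figure D1:**
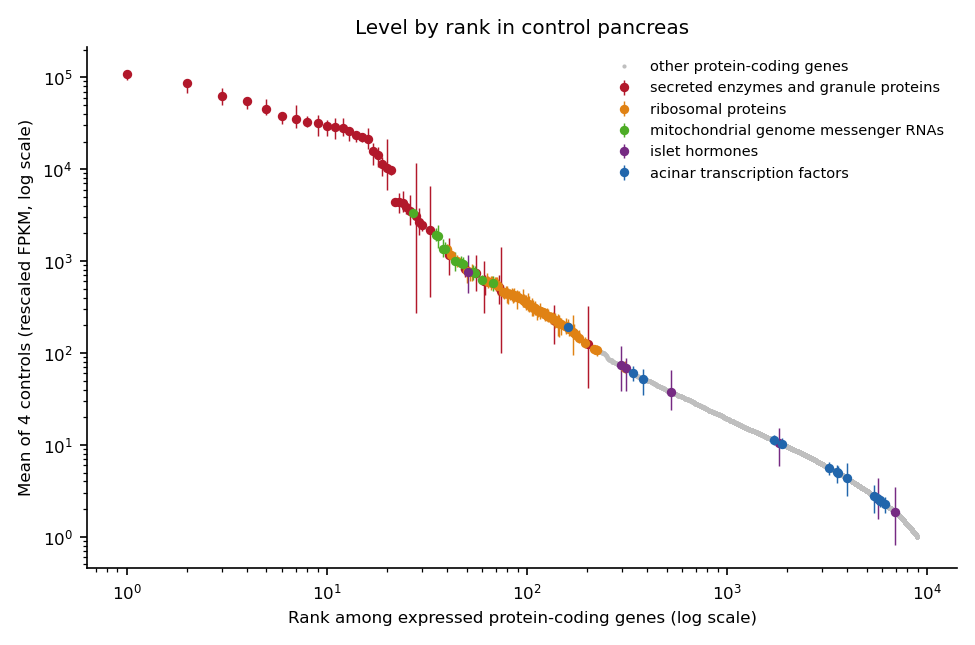
Mean level (rescaled FPKM, log scale) of expressed protein-coding genes by rank (log scale), with vertical lines from the lowest to the highest of the 4 controls for the coloured lists. The 20 highest genes are all secreted acinar proteins, while the acinar transcription factors lie between rank 161 (Xbp1) and the lower part of the curve.

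Elastases and chymotrypsins are serine proteases that act on proteins in the gut. Cela2a (ENSMUSG00000058579; mm9 chromosome 4, 141370877 to 141382075) was at 107394, 117948, 115035 and 93465 rescaled FPKM in controls 1 to 4. Cela1 (ENSMUSG00000023031; mm9 chromosome 15, 100504856 to 100518351) was at 91578, 93114, 92192 and 68300, so that controls 1 to 3 lay close together and control 4 was lowest on the deposited scale. The chymotrypsin-like gene Ctrl was at 40423, 42278, 39351 and 30715, and Cela3b, another elastase, at 49400, 34911, 30164 and 27820. Ctrl and Cela3b swapped ranks between samples, since Cela3b was the higher in control 1 and Ctrl in the other controls. Ctrb1, the main chymotrypsinogen gene, had no estimate in controls 1 and 2. In controls 3 and 4 it was at 136516 and 114626 rescaled FPKM, above Cela2a in both. Ctrc, which encodes chymotrypsin C, a protease that trims and degrades trypsinogen, was listed at 11549, 364, 274 and 280. Cufflinks, the program that made the estimates, gave Ctrc the status FAIL in controls 1 and 2, and the fragments implied for it ranged from 0.172 to 746.7, so its level is uncertain. An elastase gene the files call Gm13011, which GENCODE M21 names Cela3a under the same gene ID, was at 3595, 2490, 1659 and 1592 rescaled FPKM. It is the highest gene outside the lists, which missed it by its name.

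Trypsinogens are the precursors of trypsin, which starts the activation of the other zymogens in the gut. Prss2 was at 77411, 61692, 58158 and 50419 rescaled FPKM, next in the order of means and below Cela1 in every control. Try4 was at 57506, 44947, 41161 and 38774, with the status LOWDATA in all 4 controls in spite of at least 245041 implied fragments. Try5 was at 36010, 29286, 22784 and 22886, and 2210010C04Rik at 28441, 28692, 25778 and 20426. The other 7 members ranged in mean from 5.14 (1810009J06Rik) to 2658 (Try10) rescaled FPKM. The 11 trypsinogen genes lie in 1 cluster of close copies on chromosome 6, and how reads shared between copies were assigned decides their values. Control 1 was the highest for 10 of the 11, and for 9 to 11 under the other scalings, against 36.9% of all expressed genes on the deposited scale. Its trypsinogens also had the highest share of the protein-coding sum, at 19.99% against 18.0%, 16.7% and 17.6%.

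Carboxypeptidases cut amino acids from the ends of proteins. Cpa1 was at 38985, 34448, 30595 and 22904 rescaled FPKM, and Cpb1 at 34356, 32411, 28521 and 22898. For both, control 1 was highest and control 4 lowest on the deposited scale. As a share of the protein-coding sum the carboxypeptidase list had 8.39%, 8.39%, 7.75% and 6.97%, so control 4 was lowest there too and controls 1 and 2 were level.

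Lipids are digested by pancreatic lipase with its cofactor colipase, by related lipases and by a phospholipase. Clps, the colipase gene, was at 57546, 60775, 57178 and 45258 rescaled FPKM. The bile salt-activated lipase gene Cel was at 35882, 30304, 27912 and 21342, and Pnliprp1, a lipase-related protein gene, at 28004, 20638, 20462 and 16449. The phospholipase gene Pla2g1b was lower, with a mean of 4262 ± 1031 (SD, n = 4). Pnlip itself had an estimate in control 3 only, at 67201 rescaled FPKM, which was above Clps there. Control 4 was the lowest for all 5 members with an estimate in every control, against 29.9% of all expressed genes, but for 0 of 5 with equal FPKM sums and 3 with equal protein-coding sums. Its share of the protein-coding sum was the lowest, at 11.4%, against 12.5% to 12.8%.

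Amylase splits starch. The amylase genes of the pancreas, Amy2a1 to Amy2a5 and Amy2b, had no estimate in any control, because Cufflinks stopped at loci with too many fragments and gave them the status HIDATA. They are listed at 0, which is a missing value. By gene ID, GENCODE M21 gives the Amy2b entry as an unprocessed pseudogene and has no match for Amy2a2, Amy2a3 and Amy2a4. Amy1, the salivary and liver form, was at 16359, 17505, 13265 and 10575 rescaled FPKM, and fragments shared with the pancreatic copies cannot be told apart from its own. The ribonuclease gene Rnase1 was at 21824, 24541, 22548 and 19738, and the kallikrein gene Klk1 at 10207, 10644, 9308 and 8600. Dnase1 was near 0, with a mean of 0.189.

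Granule and other secreted acinar proteins include Reg1, a regenerating protein, at 33746, 30164, 38147 and 28518 rescaled FPKM. The granule lectin gene Zg16 was at 24179, 25198, 25524 and 19695, and the syncollin gene Sycn, whose product lines the granule membrane, at 18447, 19442, 14681 and 11046. The trypsin inhibitor gene Spink3 was at 4719, 4392, 4728 and 3942. Gp2, the major glycoprotein of the granule membrane, had a mean of 4384 ± 911, and Tff2, a trefoil peptide, of 3875 ± 427 (SD, n = 4).

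The digestive enzymes with an estimate in every control, 28 genes, held 51.2%, 38.1%, 45.4% and 41.3% of the FPKM sum over all entries, a mean of 44.0% ± 5.65 (SD, n = 4). Of the protein-coding sum they held 74.8%, 74.8%, 72.4% and 69.3%, a mean of 72.9% ± 2.61. Elastases and chymotrypsins made up 29.6% ± 1.07 of the protein-coding sum, trypsinogens 18.0% ± 1.40, lipases and colipase 12.3% ± 0.59, carboxypeptidases 7.88% ± 0.68, nucleases and kallikrein 3.49% ± 0.28, and Amy1 1.56% ± 0.21. The granule and other secreted proteins added 11.3% ± 1.56. These shares leave out the 8 genes without an estimate, which are among the most abundant. The enzymes as a whole are thus understated, while lists with no missing member are overstated. With those genes counted where a sample has an estimate, the enzymes held 46.9% of the sum over all entries instead of 44.0%. Trypsinogens then held 10.4% of it instead of 11.0%.

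**Figure D2:**
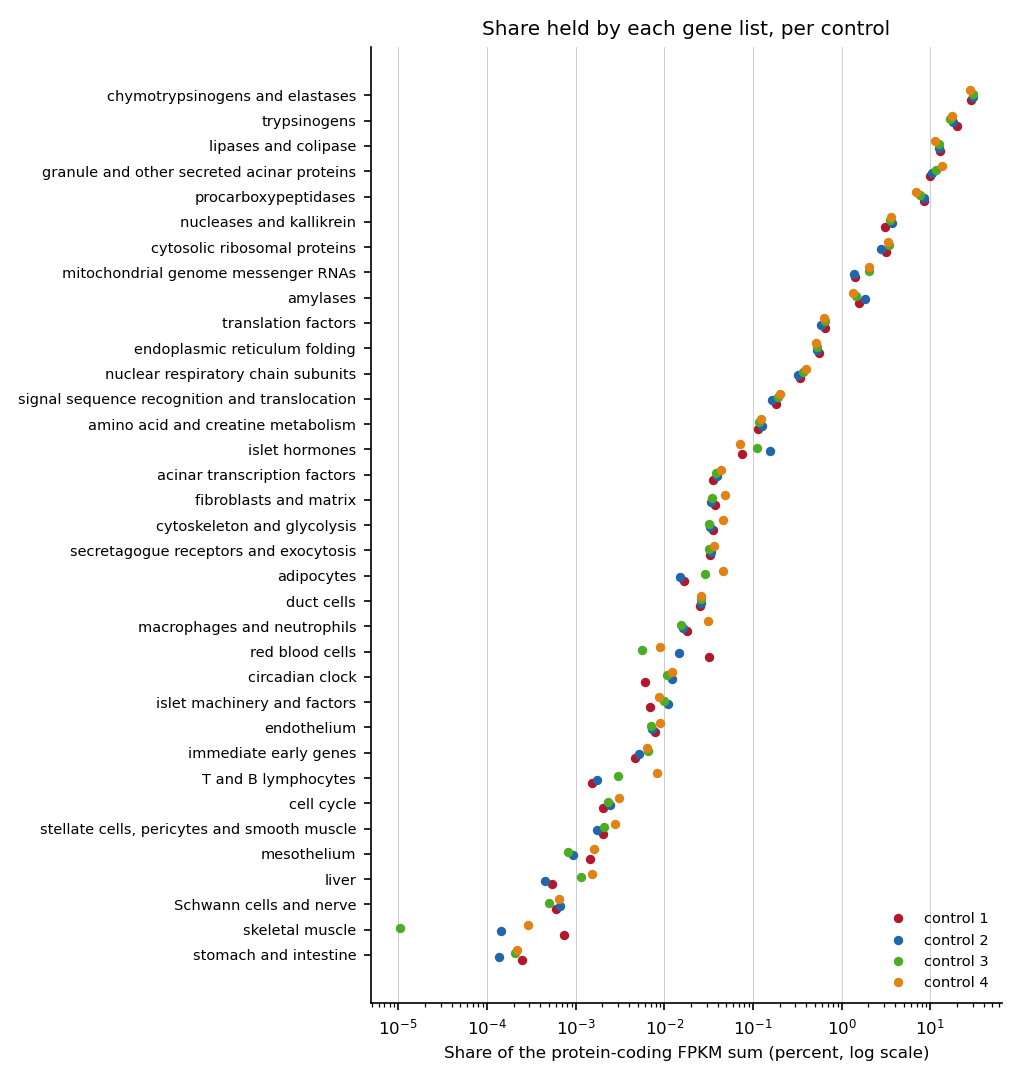
Share of the protein-coding FPKM sum (percent, log scale) held by each list, with 1 point per control. The lists run from chymotrypsinogens and elastases, at 29.6% on average, down to stomach and intestine genes, and the points of red blood cells, lymphocytes, adipocytes and islet hormones lie widest apart among the lists of cells found in pancreas.

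Genes of the machinery that folds and exports these proteins held far less of the sum. Pdia2, the protein disulfide isomerase typical of pancreas, was at 2595, 2461, 2272 and 1776 rescaled FPKM, and its relative P4hb at 875, 559, 622 and 517. Hspa5, the chaperone BiP, was lower at 146, 118, 118 and 107. All 30 endoplasmic reticulum folding genes were expressed, and together held 0.529% ± 0.018 of the protein-coding sum. All 32 entries of the signal recognition and translocation list were expressed, led by Ssr4, a translocon-associated protein, at 340, 272, 332 and 304, and Sec11c, a signal peptidase subunit, at 206, 175, 237 and 190. In the folding list on the deposited scale, control 1 was highest for 22 of 30 genes, against 36.9% of all expressed genes. Control 4 was lowest for 22, against 29.9%. With equal protein-coding sums these counts were 12 and 5, against 1830 and 913 of all 10781 expressed genes. Control 1 was also highest and control 4 lowest for the share of the protein-coding sum, at 0.551% and 0.510%.

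Ribosomal protein genes held more than either list. The 78 genes had 3.17% ± 0.30 of the protein-coding sum, with Rpl13a at 1516, 1235, 1396 and 1264 rescaled FPKM and Rplp1 at 1364, 1020, 1231 and 1028. The elongation factor gene Eef1a1 was at 2572, 2155, 2140 and 1811, and Tpt1 at 2143, 1668, 1992 and 1486. Control 1 was highest for 51 of 78 ribosomal genes on the deposited scale, against 36.9% of all expressed genes. But control 3 had the highest share of the protein-coding sum, at 3.42% against 3.19% in control 1. The order of the controls for these genes thus turns with the scale. Of the 13 messenger RNAs of the mitochondrial genome 12 were expressed and 1, mt-Nd4l, was listed at 0. They held 1.72% ± 0.37 of the protein-coding sum, led by mt-Co3 at 3728, 3011, 3513 and 3147. The 41 nuclear respiratory chain entries held 0.356% ± 0.033, with the ATP synthase gene Atp5b at 299, 250, 235 and 219.

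Of 27 genes of amino acid and creatine metabolism 24 were expressed. Asns, asparagine synthetase, was at 171, 182, 154 and 142 rescaled FPKM. Gatm and Gamt, the enzymes that make creatine, had means of 149 ± 19.8 and 130 ± 19.7, and Cbs, which makes cystathionine, one of 87.5 ± 20.8 (SD, n = 4). Actb was at 92.2, 75.8, 66.8 and 100.4, and Gapdh was lower than all of these, at 6.94, 10.3, 7.34 and 9.33.

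Of the remaining protein-coding genes outside the secreted, ribosomal and mitochondrial genome genes, the highest included Mt1, a metallothionein, and Nupr1, a small stress-responsive nuclear protein. Mt1 had a mean of 1043 ± 498.5 and Nupr1 of 998 ± 445 (SD, n = 4), and both were highest in control 1. Klk1b5, a kallikrein gene, had a mean of 688 ± 127, and Gnb2l1, a scaffold protein of the ribosome, of 636 ± 98.4.

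Release of the enzymes is triggered by hormones and nerves. Cckar, the receptor of cholecystokinin, was at 137, 127, 124 and 125 rescaled FPKM, with a coefficient of variation (CV, SD over mean) of 4.60%. Rab3d, a small GTPase on zymogen granules, was at 51.6, 46.0, 40.4 and 38.1, and Vamp8, a granule membrane fusion protein, at 56.1, 49.1, 47.9 and 46.0. The muscarinic receptor gene Chrm3 had a mean of 1.53. Of 22 members of the list 17 were expressed.

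The transcription factors that drive this programme were far lower than its products, on the same scale. Xbp1, which expands the secretory endoplasmic reticulum, was at 203, 190, 191 and 179 rescaled FPKM. Bhlha15 was at 71.6, 66.6, 49.3 and 54.0, and Rbpjl at 35.0, 67.5, 49.8 and 56.6. Ptf1a, which carries the Cre insertion on 1 allele, was at 12.2, 10.3, 9.96 and 12.7, with rank 1713 among protein-coding genes. Gata4 was at 10.2, 9.16, 11.7 and 9.59. Gata6, the gene the study is about, was at 2.76, 2.12, 2.62 and 2.45, rank 5841, from 55.0 to 82.0 implied fragments per control. Gata6 was thus below Gata4 in every control. Nr5a2 was at 5.94, 4.57, 4.53 and 4.67. Of 16 factors on the list 14 were expressed. Mnx1, which acts in the early pancreatic bud, was listed at 0 in controls 2 to 4.

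Marker genes of cell types other than acinar cells held little of the sum, which is not the share of all RNA from those cells. Their lists, 160 genes, held 0.156%, 0.146%, 0.159% and 0.168% of the sum over all entries and 0.254% ± 0.025 of the protein-coding sum (mean ± SD, n = 4), and 108 of the 160 were expressed. Islet hormones were the largest, at 0.103% ± 0.039 of the protein-coding sum. Ins2, an insulin gene, was at 616, 1169, 813 and 445 rescaled FPKM, rank 51 among protein-coding genes. Glucagon, Gcg, was at 44.2, 120.4, 91.9 and 38.3, the other insulin gene Ins1 at 82.4, 88.0, 62.8 and 39.0, and somatostatin, Sst, at 8.36, 15.1, 12.8 and 5.86. Control 2 was highest for 7 of the 7 expressed hormones, against 28.1% of all expressed genes, and control 4 lowest for 5, against 29.9%. With equal FPKM sums control 2 was highest for 5 of 7, and Ins1 was then highest in control 1. The highest Ins2 value was 1.44 times the next on the deposited scale and 1.12 times with equal FPKM sums. On the protein-coding scale the hormones' share was 0.0753%, 0.155%, 0.113% and 0.0715%, also highest in control 2 and lowest in control 4. Chga, a granule protein of endocrine cells, followed the hormones at 5.61, 13.6, 8.21 and 3.43. The beta cell factors Pdx1 and Mafa had means of 1.36 and 0.25, and 10 of 27 genes of the islet machinery were expressed.

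Duct markers held 0.0258% ± 0.0005 of the protein-coding sum, the steadiest such share of the cell type lists. Of 16 members 9 were expressed, and their median CV was 15.4%, above the 13.3% of endothelial genes. The list summed to 259, 247, 237 and 203 rescaled FPKM in controls 1 to 4, most of it from Muc1, so the share mainly follows that gene. Muc1, a mucin of the apical membrane, was at 161, 138, 138 and 109 rescaled FPKM, Spp1, osteopontin, at 52.3, 61.0, 53.8 and 48.1, Cldn3, a claudin of tight junctions, at 19.9, 17.5, 19.3 and 16.5, and Krt19, a keratin of duct cells, at 9.57, 8.55, 5.78 and 7.92. Cftr, the chloride channel of the duct, had a mean of 0.19. Sox9, a duct transcription factor, had 2.08 ± 0.50 (SD, n = 4).

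Stroma and vessels had moderate levels. The matrix proteoglycan Dcn was at 80.0, 75.4, 70.1 and 82.9 rescaled FPKM, and Col3a1, a fibrillar collagen, at 62.6, 42.9, 41.0 and 54.6. Plvap, of fenestrated endothelium, was at 19.2, 14.7, 15.7 and 17.5. Acta2, the smooth muscle actin that activated stellate cells also make, was at 3.75, 3.27, 4.03 and 4.67, and Gfap, a marker of quiescent stellate cells, had a mean of 0.042. The median CV of the 14 expressed endothelial genes was 13.3%, against 18.3% over all expressed protein-coding genes. Among mesothelial genes Upk3b, an uroplakin, was highest, at 8.29, 4.55, 3.95 and 7.16. Among macrophage genes Lyz2, lysozyme, was at 94.2, 63.4, 58.1 and 96.0.

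Markers of neighbouring organs were mostly at or near 0. Of 8 liver genes 1 was expressed, highest in control 4, and the liver list summed to 5.56, 4.29, 10.6 and 11.9 rescaled FPKM in controls 1 to 4. The liver genes Apoa1, Fga and Fgb, the stomach genes Gkn1 and Gkn2, and the intestinal genes Fabp2 and Lct were listed at 0 in all 4 controls, and albumin, Alb, had a mean of 0.604 rescaled FPKM. None of the 12 stomach and intestine genes was expressed. The autonomic nerve markers Th and Chat were also listed at 0, while Mbp, a myelin protein, was at 5.78, 5.37, 4.21 and 4.32. Of the muscle genes Mylpf alone was expressed, at 7.10, 1.07, 0 and 1.73, on at most 1.39 implied fragments.

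The 4 controls were then compared with each other. The median CV was 19.8% over the 10781 expressed genes and 18.3% over the protein-coding ones. Among the 1916 protein-coding genes averaging 10 or more it was 14.8%, where the median counting error implied by the intervals was 8.98%. Among genes with means of 1 to 10 the medians were 19.4% and 20.6%, so counting alone was as large as the spread. Among the 20 genes above 10000 the median CV was 18.3% and the counting error 0.217%. The correlation of log2(rescaled FPKM + 1) across expressed protein-coding genes ranged from 0.958 to 0.971 between pairs of controls. Over all expressed genes it ranged from 0.889 to 0.918. These are across genes, which are not independent replicates.

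**Figure D3:**
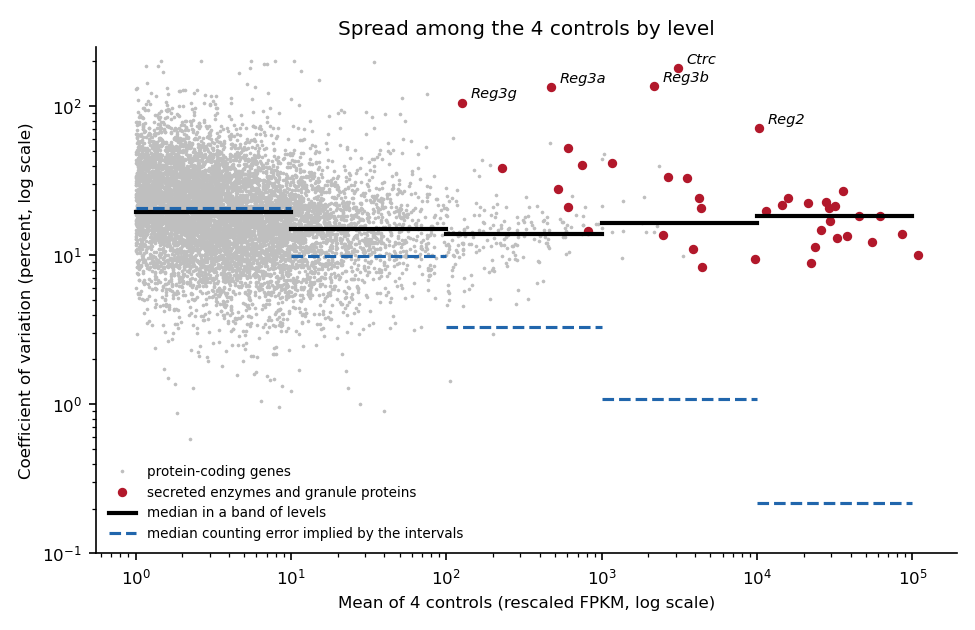
CV among the 4 controls on the deposited scale (percent, log scale) against mean level (rescaled FPKM, log scale) for expressed protein-coding genes. Red points are secreted acinar genes, black lines the median CV in each band of levels and dashed lines the median counting error. Above 10 the median CV lies between 13.8% and 18.3% while the counting error falls to 0.217%, and Ctrc and the Reg3 genes lie far above the median of their bands.

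The steadiest of these 1916 genes was Ndufs6, a subunit of respiratory complex I, at 40.2, 40.0, 39.4 and 40.1 rescaled FPKM (CV 0.90%). Among the next steadiest were Tspan13, Gsn (gelsolin, which cuts actin filaments), Prdx5 (a peroxidase), 2310036O22Rik, Skp1a, Mxd4, 2810407C02Rik and Txndc5, with CVs of 1.29% to 2.81%. They are among the lowest of 1916 genes, and for Ndufs6, with 91.1 to 132.1 implied fragments per control, the spread was smaller than counting alone gives on average. The highest CVs in this ranking belonged to Pof1b, Ctrc, Braf, Smn1, Reg3b, Reg3a, Cisd3, Fgfr4, Reg3g and S100a8, from 199.6% down to 101.3%. Gm17631, a predicted gene and so left out, had a CV of 200%. For Pof1b, Braf, Smn1 and Fgfr4 at most 7.34 fragments stood behind any value, so these are low counts. For Reg3a, Reg3b and Reg3g at least 207.0 fragments did.

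Genes with 1 control more than 2-fold outside the range of the other 3, after adding 1 to each level, were counted per control and direction. Control 1 was above for 117 genes (1.09% of 10781), control 2 for 127 (1.18%), control 3 for 77 (0.714%) and control 4 for 154 (1.43%). Control 1 was below for 67 (0.621%), control 2 for 40 (0.371%), control 3 for 36 (0.334%) and control 4 for 24 (0.223%). Protein-coding genes made up 48, 17, 19 and 40 of those above and 39, 12, 12 and 8 of those below, in controls 1 to 4. Between 30.8% and 73.7% of these protein-coding genes overlapped another entry, against 40.7% of all expressed protein-coding genes. With 1 sample against 3 there is no test. Expressed genes were set by the mean of these same controls, and 8983 of the 10781 reached the minimum in every control. A gene can thus enter only through the control where it is high, which favours counts above over counts below. Other scalings moved the median log2 level of a control by up to 0.28: equal FPKM sums by -0.28 in control 2 and 0.23 in control 4, equal protein-coding sums by -0.18 in control 1 and 0.24 in control 4. The ratio was largest mostly for genes with under 25 implied fragments in every control, apart from Ctrc with its failed estimates (Pof1b, Ctrc and Cbx8 above in control 1, Gm17631, Lmbr1 and Katnal1 in control 2, Gm11032, Zkscan4 and Kdm4b in control 3, Gm10491, Braf and Gm10217 in control 4). Below the others the largest ratios were those of S100a9, Supv3l1 and S100a8 in control 1, 2210012G02Rik, Renbp and BC028528 in control 2, Ppp2r4, Atm and Gm10135 in control 3, and Hnrnph1, Iqcb1 and Gm17655 in control 4. All of these but S100a9 and S100a8 also had under 25 implied fragments in every control. The deposited intervals of that control and the others were apart for 15, 1, 1 and 23 of the protein-coding genes above in controls 1 to 4, and for 17, 2, 1 and 0 of those below. The genes described next with values are from these genes with intervals apart, chosen after their values were seen, or are members of a list.

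**Figure D4:**
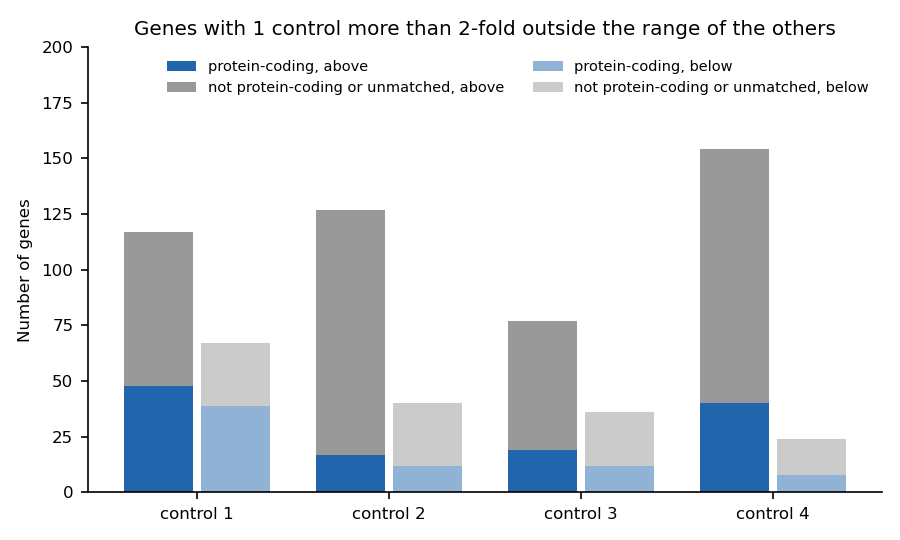
Number of expressed genes with 1 control more than 2-fold outside the range of the other 3, per control, above (dark bars) and below (light bars), with the blue part for protein-coding genes and the grey part for the rest. Control 4 has the most genes above, 154, of which 40 are protein-coding, and control 1 the most below, 67, of which 39 are protein-coding.

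Control 4 stood apart for regenerating proteins, which acinar cells are known to secrete in inflammation and injury. Reg2 (ENSMUSG00000023140; mm9 chromosome 6, 78355149 to 78358091) was at 6106, 5965, 7962 and 21236 rescaled FPKM, Reg3b at 1056, 404, 636 and 6584, Reg3a at 157, 100.04, 211 and 1418, and Reg3g at 66.8, 70.4, 42.0 and 325. Control 4 was thus 2.67, 6.23, 6.71 and 4.63 times the next highest control. Reg3d was at 662, 471, 669 and 1172, while Reg1, at 33746, 30164, 38147 and 28518, was lowest in control 4 on the deposited scale but not with equal protein-coding sums. Of 14 granule and other secreted genes, 4 were more than 2-fold above in control 4, against 1.43% of all expressed genes. The ratios of the 4 genes were between 2.67 and 8.30 under the scalings tried.

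Lymphocyte genes were also highest in control 4. Of 7 expressed T and B lymphocyte genes it was highest for 7, against 18.2% of all expressed genes, and more than 2-fold above for 6, against 1.43%. Ighm, the immunoglobulin M heavy chain, was at 41.6, 34.1, 64.7 and 143.7 rescaled FPKM, Cd79a, part of the B cell receptor, at 0.951, 1.55, 1.51 and 5.44, and Ms4a1, the B cell marker CD20, at 1.10, 1.03, 0.929 and 3.39. The MHC class II genes H2-Eb1 and H2-Ab1, which present antigens, were at 12.9, 10.6, 9.41 and 47.1 and at 14.6, 17.0, 13.4 and 37.4. The T cell genes Cd3e, Cd3d and Cd8a had means of 0.30, 0.12 and 0.07. Of 16 expressed macrophage and neutrophil genes control 4 was highest for 11 and control 1 for 5, against 18.2% and 36.9% of all expressed genes. Of the 16, 2, S100a8 and S100a9, were more than 2-fold above in control 4, against 1.43%. S100a8, of neutrophils, was at 1.23, 7.88, 8.20 and 27.6, lowest in control 1. The summed level of the lymphocyte list was 57.5, 50.7, 92.3 and 208.6 in controls 1 to 4, and its part in the Reg values was not tested.

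Fat cell genes were mostly highest in control 4 as well. Of 15 expressed adipocyte genes control 4 was highest for 13, against 18.2% of all expressed genes, and 1, Dgat2, was more than 2-fold above, against 1.43%. Cfd, adipsin, was at 27.2, 25.6, 66.7 and 91.3 rescaled FPKM, Car3, a carbonic anhydrase, at 24.3, 21.6, 50.1 and 72.3, Adipoq, adiponectin, at 5.87, 5.37, 13.6 and 23.7, and Fabp4, a fatty acid binding protein, at 51.7, 37.3, 65.1 and 86.7. Controls 3 and 4 were both above controls 1 and 2 for these genes. On no list, but among the genes with intervals apart, Scd1, a fatty acid desaturase, was at 9.05, 21.4, 28.3 and 73.7, Fasn, fatty acid synthase, at 9.80, 10.9, 12.0 and 25.2, and Me1, malic enzyme, at 0.734, 1.85, 1.20 and 5.89.

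**Figure D5:**
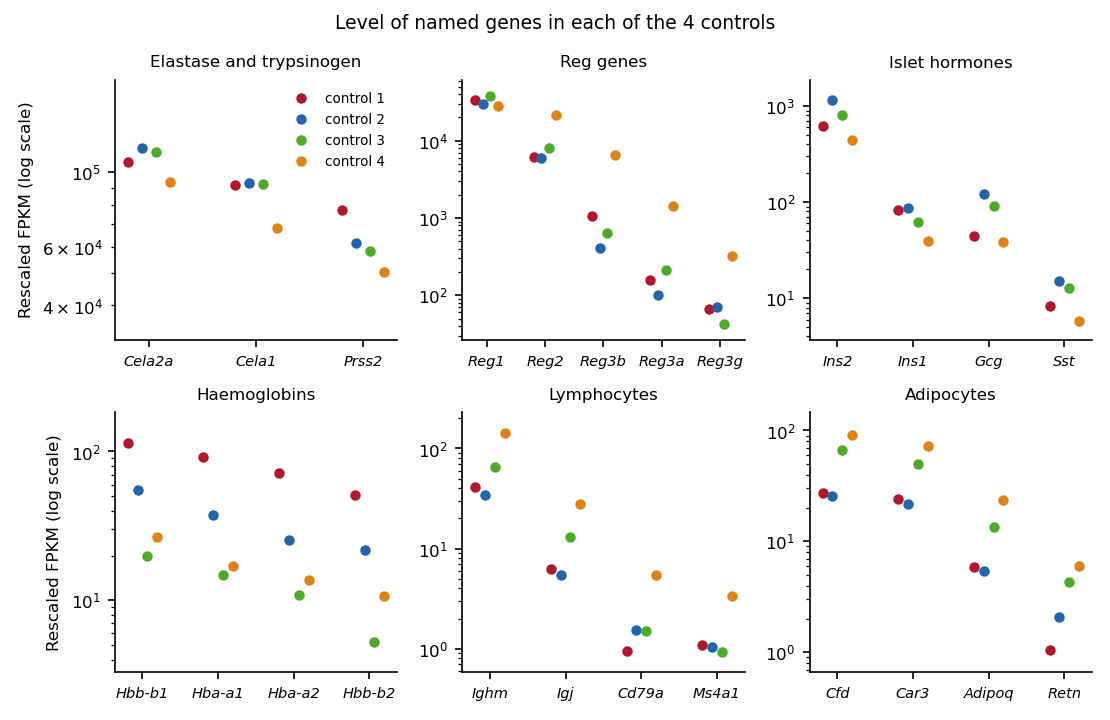
Level (rescaled FPKM, log scale) of named genes in each of the 4 controls, in 6 panels. Reg2 and the Reg3 genes, lymphocyte genes and adipocyte genes are highest in control 4, haemoglobin genes in control 1 and, on this deposited scale, islet hormones in control 2, while for Cela2a, Cela1 and Prss2 the highest control is less than 2-fold above the lowest.

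Control 1 stood apart in other genes. All 4 haemoglobin genes were more than 2-fold above, against 1.09% of all expressed genes. Hbb-b1 was at 114.7, 55.1, 19.8 and 26.6 rescaled FPKM and Hba-a1 at 91.4, 37.3, 14.8 and 16.9, so control 2 also exceeded controls 3 and 4. Against control 2, the next highest, Hbb-b1 in control 1 was 2.08 times as high on the deposited scale and 1.91 times with equal protein-coding sums. Fetub, a secreted protease inhibitor, was at 16.1, 1.55, 1.78 and 1.27, and Agr2, a protein disulfide isomerase of mucus-making cells, at 7.60, 0.737, 2.11 and 1.67. Several genes were lower in control 1. Gal, the neuropeptide galanin, was at 81.4, 242.2, 197.2 and 249.4, and Mgp, matrix Gla protein, at 13.8, 42.8, 39.1 and 40.8. The splicing genes Srsf5 and Clk1 were at 12.0, 34.7, 30.1 and 30.6 and at 5.86, 17.5, 13.4 and 18.1, and Ogt, which attaches N-acetylglucosamine to proteins, at 3.31, 12.1, 8.81 and 11.7. Of 12 expressed clock genes control 1 was lowest for 9, against 24.3% of all expressed genes. Of the 12, 2, Per3 and Tef, were more than 2-fold below in control 1, against 0.621%. Dbp was at 15.1, 34.3, 28.0 and 25.8 and Per3 at 1.17, 4.26, 3.65 and 3.66.

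Controls 2 and 3 had few such genes. Lars2, a mitochondrial leucyl-tRNA synthetase, was at 49.6, 205.7, 90.7 and 93.1 rescaled FPKM, highest in control 2. The short entry mmu-mir-2144 was also highest in control 2 and lowest in control 1, at 19363, 74846, 30926 and 34184. Entries with no match in GENCODE M21 held 35.8% of the FPKM sum in control 2, the highest share, and 15.6% in control 1, the lowest. Whether the Lars2 value reflects the synthetase transcript alone was not tested. Glud1, glutamate dehydrogenase, was at 13.0, 4.61, 14.8 and 14.2, lowest in control 2. Pglyrp1, a bacteria-binding protein of neutrophils, was at 0.455, 0.976, 7.98 and 3.16, highest in control 3, and Cfb, complement factor B, at 8.54, 3.93, 1.25 and 5.16, lowest there. The loci of Lars2, Glud1 and Cfb overlap another entry, as do those of Me1, Ms4a1 and H2-Ab1.

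Cycling and early response genes were low. Among 16 cell cycle genes 7 were expressed, led by Pcna, the sliding clamp of DNA replication, at 8.32, 10.8, 8.02 and 8.72 rescaled FPKM. Mki67, a marker of cycling cells, had a mean of 0.341. Of the immediate early genes Jund, an AP-1 subunit, was highest, at 11.9, 9.07, 13.9 and 11.7, and Fos was at 0.0604, 0.429, 0.786 and 0.553.

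Sex and title prefix separated the same sample. The Y-linked gene Eif2s3y was at 5.34, 0, 0.281 and 0 rescaled FPKM and Ddx3y at 2.54 in control 1 and at most 0.0485 in the others. Xist, which is transcribed from the inactive X chromosome, was at 0.00809, 24.5, 17.3 and 26.1. Control 1 has a title that begins with BKD, and the titles of controls 2 to 4 begin with ASK. In these 4 samples sex, prefix and animal cannot be told apart for any gene in which control 1 differs. Leaving out control 1 lowered the median CV from 19.8% to 16.6%. Leaving out any other control lowered it too, but by less.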

How the data were processed

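RNA of 4 control pancreases was measured by RNA-seq, 1 library per sample. Per the submitters' processing notes, the tools were Cufflinks 2.0.1, Bowtie, TopHat2 2.0.4 and CASAVA 1.8, and the build was mm9 (NCBIM37). The authors deposited Cufflinks FPKM per gene with an interval and a status, and these FPKM are not scaled to library size in the usual way, since they sum to at least 141965623920 per sample. They were divided by 100000 and summed per gene ID. Values with the status HIDATA were treated as missing, and those genes were left out of sums in all controls.

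Fragments behind a value were inferred from its interval, taken as 2 SDs of a count to each side, and the counting error is 1 over the square root of that number. Read counts were not used here, so the true depth is unknown. Biotypes came from GENCODE M21 by gene ID, which matched 31818 of 36432. Promoters came from RefSeq on GRCm38.p6, and their coordinates are not those of the files. Of 572 symbols asked for on 36 lists, 3 were not matched, and a gene was also looked up by its GENCODE name. Calculations used Python 3.11.15, pandas 2.3.3, NumPy 2.4.6 and matplotlib 3.10.9, and the scripts were tested on simulated data.

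There is 1 group, so no groups were compared and no p-value is given. Samples far from the others were marked by Dixon's critical value. The genes and lists were chosen with earlier results of these data known. The rule for named genes takes the 20 highest protein-coding genes, the 10 highest outside the secreted lists that are neither ribosomal nor of the mitochondrial genome, genes with HIDATA, up to 4 of the highest of each list with defining markers at 0, the 10 highest and 10 lowest CVs at a mean of at least 10, up to 3 protein-coding genes per control and direction farthest outside the range, and Gata6, Ptf1a and the sex chromosome genes. The CV ranking left out immunoglobulin segments and predicted genes. Other list members named in the text were chosen with their values seen. Alternatives varied the entries counted, the expression minimum, the scaling, the pseudocount, the fold and the controls included. Results for a few genes that the rule takes are not reported here.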

Additional observations from a re-analysis of the deposited data

Results flagged for a closer look

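In groups of 4, a highest or lowest sample stands far from the others where its gap to the nearest, divided by the whole range, exceeds Dixon's critical value. Chance flags about 1 in 20 groups, and 6.67% of expressed protein-coding genes exceed the limit here. It was exceeded by 23 of 167 named genes. Among 39 lists 5 shares exceeded it. Each list has a share of the sum over all entries and another of the protein-coding sum, so more than 39 shares were looked at. Many of the named genes were chosen for a high CV or for lying outside the range, so their count cannot be read against that share.

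Control 4 was farthest from the others for the Reg genes, with ratios of 0.869 for Reg2, 0.894 for Reg3b, 0.916 for Reg3a and 0.8999 for Reg3g, for the B cell gene Cd79a (0.867) and, lowest, for Cela1 (0.938). Control 1 was farthest as the highest for Nupr1 (0.831) and the Y-linked gene Eif2s3y (0.947), and as the lowest for Mgp (0.872). These are on the deposited scale: with equal protein-coding sums Cela1 (0.252), Nupr1 (0.732) and Mgp (0.760) did not exceed the value, and with equal FPKM sums Reg2 (0.824) did not either, while the Reg3 genes, Cd79a and Eif2s3y exceeded it under the 3 scalings tried. Genes on few implied fragments were Pof1b (0.999), Smn1 (0.947) and Cbx8 (0.986), highest in control 1, Lmbr1 (0.992), Katnal1 (0.974) and Gm17631 (1), highest in control 2, Zkscan4 (0.986), Kdm4b (0.978) and Gm11032 (1), highest in control 3, Braf (0.980), Gm10491 (1) and Gm10217 (1), highest in control 4, and BC028528 (0.939), lowest in control 2. Ctrc, with failed estimates in 2 controls, had 0.992 in control 1.

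Of shares of the sum over all entries, control 2 was lowest for signal sequence recognition and translocation (0.844) and for nuclear respiratory chain subunits (0.927). Of shares of the protein-coding sum, control 1 was lowest for duct cells (0.911) and highest for sex chromosome genes (0.958), and control 4 was highest for macrophages and neutrophils (0.8293).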

How the results depend on the processing

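The shares depend on which entries form the sum. The enzymes' share of 44.0% was 70.5% over entries spanning at least 500 bases, 72.9% over protein-coding genes and 70.8% of implied fragments. That of other cell types, 0.157%, was 0.254%, 0.254% and 0.299%, and 0.174% without the mitochondrial genome. The genes that hold 50% of the sum, a median of 16, numbered 9, 8 and 8.5. With a minimum of 5 there were 4461 expressed genes, and 21874 had a value above 0 in a control. The median CV of 19.8% was 23.0% with equal FPKM sums, 17.1% with a minimum of 5 and 18.3% over protein-coding genes. The alternative with equal protein-coding sums was chosen after seeing the data. The lowest correlation of 0.889 was 0.840 with a minimum of 5, 0.958 over protein-coding genes, also with equal protein-coding sums, and 0.812 with a pseudocount of 0.1. Genes with 1 control outside the range, 612 different genes, numbered 328 with a minimum of 5 (368 with that minimum and no value added), 189 over protein-coding genes, 218 with equal protein-coding sums and 276 at 4-fold. Ins1 in control 2 was 1.07 times the next control on the deposited scale and 0.868 times with equal FPKM sums, where control 1 was highest.

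Leaving out each control gave 41.6% to 46.0%, 0.154% to 0.161%, 15 to 17 genes, 10639 to 10790 expressed genes, a median CV of 16.6% (without control 1) to 19.6%, a lowest correlation of 0.888 to 0.894 and 681 to 781 genes outside the range. No paired analysis was possible because only 1 group was described. Below 10 rescaled FPKM, counting error limits what the spread shows.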
